A study of Saccharomyces cerevisiae with 12 samples.

Results

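A set of 218 genes had higher mRNA signal 20 min after a glucose pulse in yeast that lacks hexose transporters, and lower signal after the same pulse in yeast that keeps them. They were chosen from 5449 measured genes of Saccharomyces cerevisiae by their values on the arrays with replicate numbers 1 and 3. A member had a mean difference between 20 and 0 min of at least 0.8 log2 units in the null strain and at most -1 in the reference strain, with a mean deposited log2 intensity of at least 7 on the null arrays at 20 min. Both differences were used to choose the genes, so they are described here with no test. The marker named for the set, FMP48, met the rule.

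The null strain, KOY.VW101P, is a CEN.PK derivative in which the known hexose transporter genes are deleted, and the reference strain, KOY.PK2-1C83P, is isogenic and keeps them. Each group was a strain at a time, namely the null strain at 20 min, the null strain at 0 min, the reference strain at 20 min and the reference strain at 0 min, with 3 arrays each from replicate cultures. All cultures were chemostats limited by ethanol at a dilution rate of 0.1 per h, and 0 min was the steady state before the pulse. Each strain is 1 construct, so an effect of the transporter deletions cannot be told apart from other differences between the strains.

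Yeast on ethanol respires, makes its sugars by gluconeogenesis and keeps stores and stress proteins high. Glucose that is taken up and phosphorylated represses the genes for these tasks, through the Snf1 kinase with the Mig1 repressor and through cAMP and protein kinase A. Glucose is also sensed outside the cell by the membrane proteins Snf3 and Rgt2, which act on the corepressors Mth1 and Std1.

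All 15 measured hexose transporter genes lay at the bottom of the scale on all 6 null arrays, from 1.95 to 2.46 log2 units, and HXT5 had 10.13 to 14.77 on the reference arrays. Some of the 15 were as low in the reference strain, such as HXT10, HXT13 and HXT15 with 1.79 to 2.33, and cannot check the strain label. Genes with reference values clear of the null range, such as HXT5 and HXT2 (10.83 to 12.39), went with the label on every array. The arrays with replicate number 2, however, lay with the other labelled time in both strains. On the null array labelled 20 min, all 218 members lay nearer to the mean of the null arrays 1 and 3 at 0 min than to the mean of those at 20 min. On the null array labelled 0 min, 200 of 218 lay nearer to the other time, and in the reference strain 218 and 215 did, on the arrays labelled 20 and 0 min. Genes outside the set lay nearer to the other time in 82.8, 72.6, 91.8 and 92.1% of cases on the same arrays. No array was moved to another group. The differences below therefore rest on 2 arrays per group, numbers 1 and 3, and the arrays of number 2 are given by their labels. An array cannot tell fewer expressing cells from less mRNA per cell.

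Values are log2 intensities after each array was centred on its median over all genes. On this scale the median response over all genes was 0.12 in the null strain and 0.11 in the reference strain. Among the members, the null response ran from 0.80 to 3.96 with a median of 1.05, a 2.07-fold higher signal. The reference response ran from -8.56 to -1.02 with a median of -3.39, a 10.5-fold lower signal. The reference response was the larger in size for all but 12 members, namely ADY4, ALD3, FAA1, FIT1, FMP48, GAT2, IMA1, PAU21, UTR5, VHS1, YJR098C and YKR075C.

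**Figure D1:**
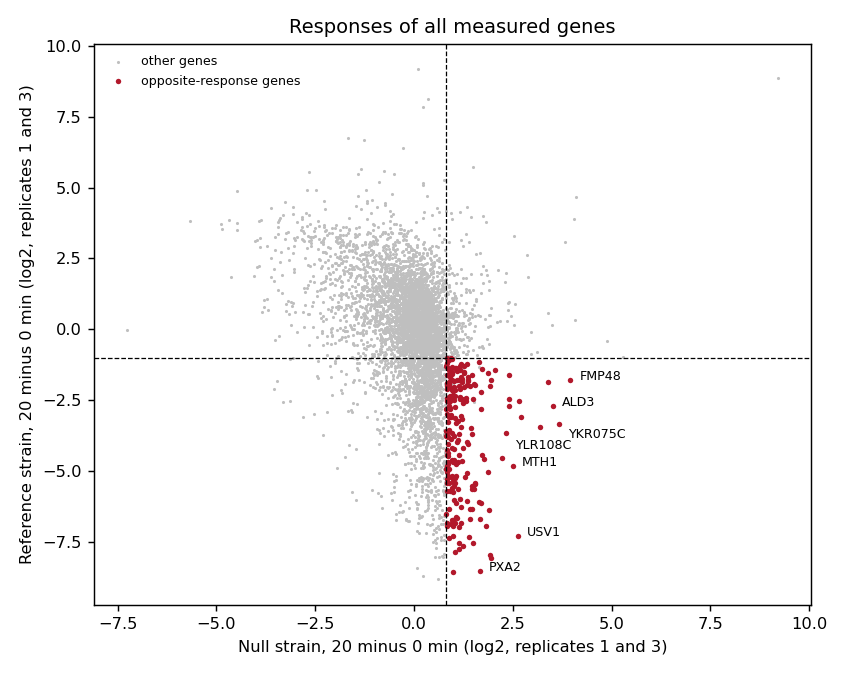
Each point is 1 of 5449 genes, with the mean difference between 20 and 0 min over replicates 1 and 3 in the null strain on the x axis and in the reference strain on the y axis, in log2 units. The dashed lines are the rule's limits of 0.8 and -1, and the 218 members (red) fill the lower right corner, most of them close to the limit on the x axis.

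The null limit cut through a dense part of the data. Of the members, 91 had a null response under 1, 112 from 1 to under 2, and 15 of at least 2. Just inside the limits were PEX14, YMR084W, BBC1, HBT1 and MSC1, with null responses of 0.80 to 0.82. Just outside were YHI9, CAB5, MIC27, PTK2 and GLO1, with 0.79 to 0.80. In all, 56 members lay within 0.1 of a limit and 75 other genes missed a single limit by less than 0.1. In the reference strain, 38 members had a response of -6 or lower and 52 had one above -2.

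The set is a part of the genes with lower signal in the reference strain. Of 1472 genes with a reference response of at most -1 and the same minimum level, the 218 members were 14.8%, and 854 stayed within 0.5 of 0 in the null strain. Seen from the null strain, 409 genes had a response of at least 0.8 and that level, and the members were 53.3% of them. The share of genes with a reference response of at most -1 was 28.5% of all genes, with no minimum level. With that level it was 1472 of 4858 genes. Among the 409 genes, 55 had a reference response of at least 1.

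The limma fit across all 5449 genes called 184 members higher at 20 min in the null strain, where the background was 12.6% of genes called higher. It called 217 lower in the reference strain, against a background of 36.2%. Both contrasts were used to choose the members, so nothing is read from these counts. Both null arrays at 20 min lay above both at 0 min for 216 members, where this held for 41.6% of all genes. IZH4 and SPS100 were the exceptions. Both reference arrays at 20 min lay below both at 0 min for all 218, where this held for 41.8% of all genes. The rule used these same arrays, so nothing is read from this separation either. That also holds where single genes below are said not to overlap.

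FMP48, a gene for a predicted protein kinase found in mitochondria, had the highest null response of the set. Its log2 intensity was 14.20 and 14.80 on the null arrays 1 and 3 at 20 min, against 10.70 and 10.38 at 0 min. In the reference strain it was 8.31 and 9.12 at 20 min, against 10.36 and 10.67 at 0 min. The values of each strain did not overlap between times, and the strains began at nearly the same level. The null response was 3.96 (SE 0.31, n = 2 arrays per group), or 15.5-fold higher, and the reference response was -1.80 (SE 0.31), or 3.48-fold lower. The replicate 2 arrays had 10.66 and 14.74 in the null strain and 10.58 and 8.72 in the reference strain, labelled 20 and 0 min in this order.

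The 12 members with the widest gap between the strains' responses, from 8.69 to 10.18 log2 units, all had a deposited log2 value under 5 on at least 1 reference array at 20 min. Such values, counted before centring, lie far below the array medians of 10.34 to 10.90, so the sizes of these reference changes are uncertain. In all, 76 members had a deposited reference value under 5 at 20 min.

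The peroxisome and fatty acid genes gave 4 of these 12. PXA2, a subunit of the transporter that brings fatty acids into peroxisomes, had 13.38 and 13.25 in the null strain at 20 min, against 11.82 and 11.50 at 0 min. The reference arrays had 3.34 and 2.67 at 20 min, against 11.54 and 11.51 at 0 min. Its responses were 1.66 (SE 0.24) in the null and -8.52 (SE 0.24) in the reference strain. IDP3, the peroxisomal isocitrate dehydrogenase that supplies NADPH, had 13.40 and 13.39 in the null strain at 20 min, against 11.97 and 11.84 at 0 min. The reference arrays had 4.47 and 4.90 at 20 min, against 12.07 and 12.36 at 0 min, and the groups of neither gene overlapped.

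FAT3, a gene linked to fatty acid uptake, had 14.15 and 14.37 in the null strain at 20 min, against 13.77 and 12.75 at 0 min. The reference arrays had 4.77 and 4.84 at 20 min, against 13.39 and 13.35 at 0 min. POX1, the oxidase of the first step of peroxisomal beta-oxidation, had 14.63 and 14.81 in the null strain at 20 min, against 13.90 and 13.47 at 0 min. Its reference values were 5.15 and 6.33 at 20 min, against 13.44 and 13.75 at 0 min. The null responses of FAT3 and POX1, 1.00 (SE 0.30) and 1.04 (SE 0.36), were about 3 times their SE. That of FAT3 rested on the null arrays at 0 min, being 0.49 without replicate 3 of that group and 1.51 without replicate 1. PXA2 and FAT3 are neighbours on chromosome XI.

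Of the regulators, 3 were among the 12. USV1, a zinc finger factor of growth on non-fermentable carbon, had 13.38 and 13.76 in the null strain at 20 min, against 11.25 and 10.63 at 0 min. The reference arrays had 3.45 and 3.52 at 20 min, against 11.07 and 10.50 at 0 min. Its null response of 2.64 (SE 0.27) was the highest among the transcription regulators of the set. XBP1, a repressor of transcription made under stress and in quiescence, had 12.92 and 12.98 in the null strain at 20 min, against 11.80 and 11.29 at 0 min. XBP1 had 4.47 and 3.90 in the reference strain at 20 min, against 11.62 and 11.45 at 0 min. LEE1, a zinc finger protein of unsettled role, had 13.60 and 13.88 in the null strain at 20 min, against 12.85 and 12.34 at 0 min, and 4.89 and 4.50 in the reference strain at 20 min, against 12.50 and 12.38 at 0 min.

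GAC1, which directs the phosphatase Glc7 to glycogen synthase, had 11.63 and 11.21 in the null strain at 20 min, against 10.13 and 9.06 at 0 min. The reference arrays had 3.36 and 3.57 at 20 min, against 10.82 and 9.98 at 0 min. ARO9, an aminotransferase of aromatic amino acid breakdown, had 12.50 and 13.04 in the null strain at 20 min, against 11.97 and 11.29 at 0 min. Its reference values were 4.20 and 4.87 at 20 min, against 12.08 and 12.09 at 0 min. For both genes the arrays at 20 min lay above those at 0 min in the null strain and below them in the reference strain.

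The 3 that remain have less settled roles. PHM7, a predicted membrane protein, had 13.97 and 14.65 in the null strain at 20 min, against 12.58 and 12.13 at 0 min, and 4.45 and 4.52 in the reference strain at 20 min, against 12.45 and 12.64 at 0 min. ISF1, a hydrophilic protein whose excess suppresses loss of the HAP activators of respiration, had 14.18 and 14.37 in the null strain at 20 min, against 12.36 and 12.37 at 0 min, and 4.11 and 4.66 in the reference strain at 20 min, against 12.11 and 12.57 at 0 min. AIM17, which encodes a mitochondrial protein, had 12.31 and 12.80 in the null strain at 20 min, against 11.56 and 11.07 at 0 min, and 3.73 and 3.80 in the reference strain at 20 min, against 11.18 and 11.68 at 0 min. None of the 3 overlapped between times in either strain.

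The replicate 2 arrays of these 12 genes repeated both levels, at the other labelled time. PXA2 had 11.64 and 13.35 in the null strain and 11.57 and 3.44 in the reference strain, labelled 20 and 0 min in this order, as in the sentences that follow. IDP3 had 11.87 and 13.33 in the null strain, with 12.17 and 4.50 in the reference strain. FAT3 had 13.34 and 14.62 in the null strain, with 13.36 and 5.36 in the reference strain. In each of these genes the null array labelled 0 min was the higher one. POX1 had 13.50 and 14.79 in the null strain, with 13.75 and 5.00 in the reference strain. USV1 had 10.77 and 13.84 in the null strain, with 11.07 and 3.23 in the reference strain. XBP1 had 11.39 and 13.27 in the null strain, with 11.66 and 4.37 in the reference strain. The reference array labelled 0 min was the low one in all of them. LEE1 had 12.23 and 13.87 in the null strain, with 12.68 and 4.33 in the reference strain. GAC1 had 9.23 and 12.21 in the null strain, with 10.43 and 3.20 in the reference strain. ARO9 had 11.91 and 12.83 in the null strain, with 12.23 and 4.53 in the reference strain. The gap in the null strain was narrowest for ARO9 among these. PHM7 had 12.27 and 14.69 in the null strain, with 12.64 and 4.68 in the reference strain. ISF1 had 12.18 and 14.35 in the null strain, with 12.65 and 4.71 in the reference strain. AIM17 had 11.36 and 12.51 in the null strain, with 11.37 and 3.49 in the reference strain.

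**Figure D2:**
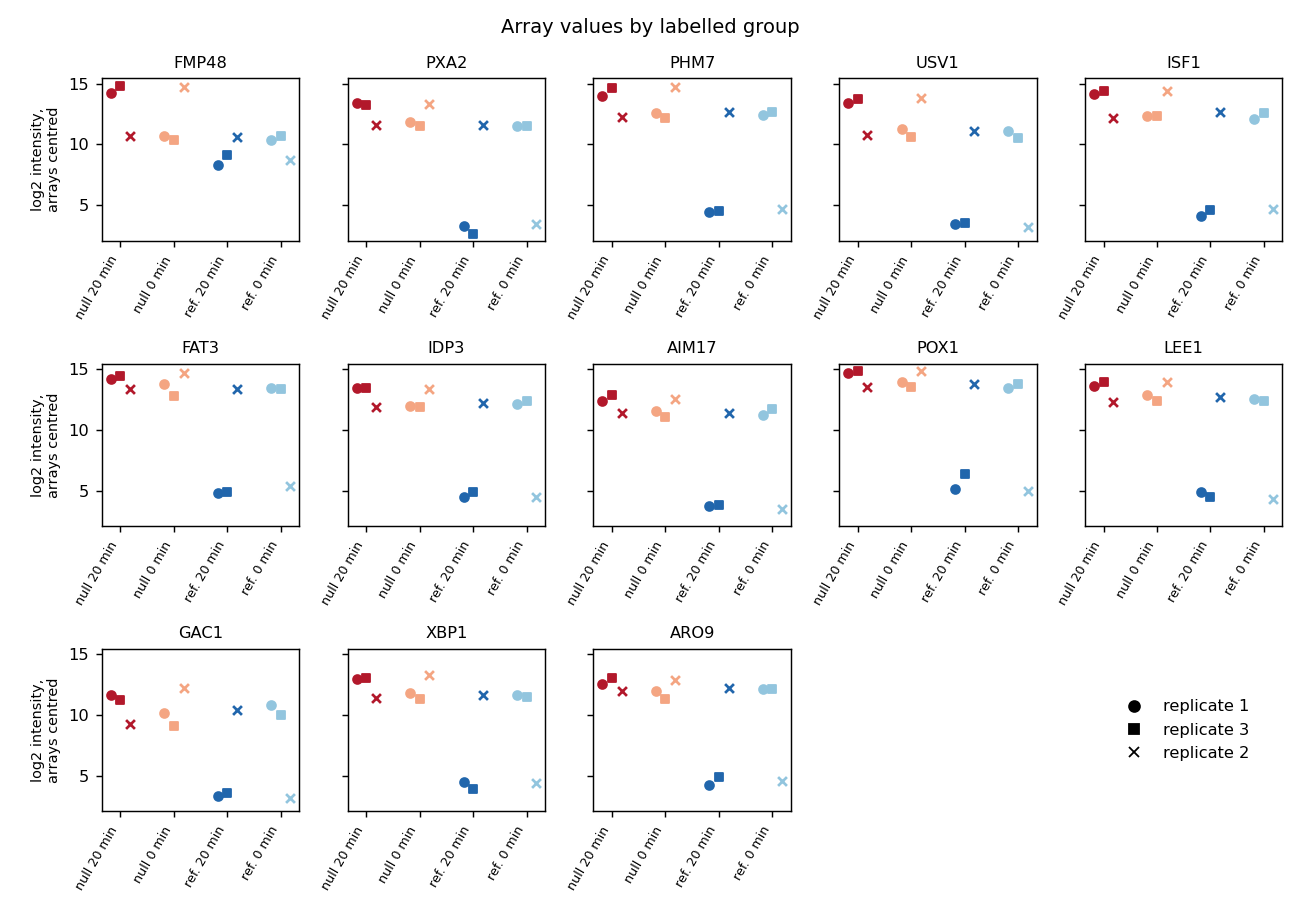
Each panel is 1 gene, with the log2 intensity of all 12 arrays on the y axis after centring and the labelled group on the x axis. Circles and squares are replicates 1 and 3, crosses are replicate 2, and the crosses lie at the level of the other labelled time of their strain.

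By their known roles, 164 members were sorted into 11 classes and 54 were left unclassed. The classes were written after the members were known, so they describe the set and carry no test. The largest was mitochondria and respiration with 28 members, followed by peroxisome and fatty acid use and by transport, cell wall and cell surface with 19 each. Median null responses ran from 0.87 to 1.27 across classes. Most members lay not far above the rule's null limit, which holds these medians close to it, so no likeness of the classes is read from them. Median reference responses ran from -5.98 for peroxisome and fatty acid use to -2.09 for transcription and RNA regulators. Many reference responses lay far past their own limit, so the spread of the medians is not compared between the strains.

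**Figure D3:**
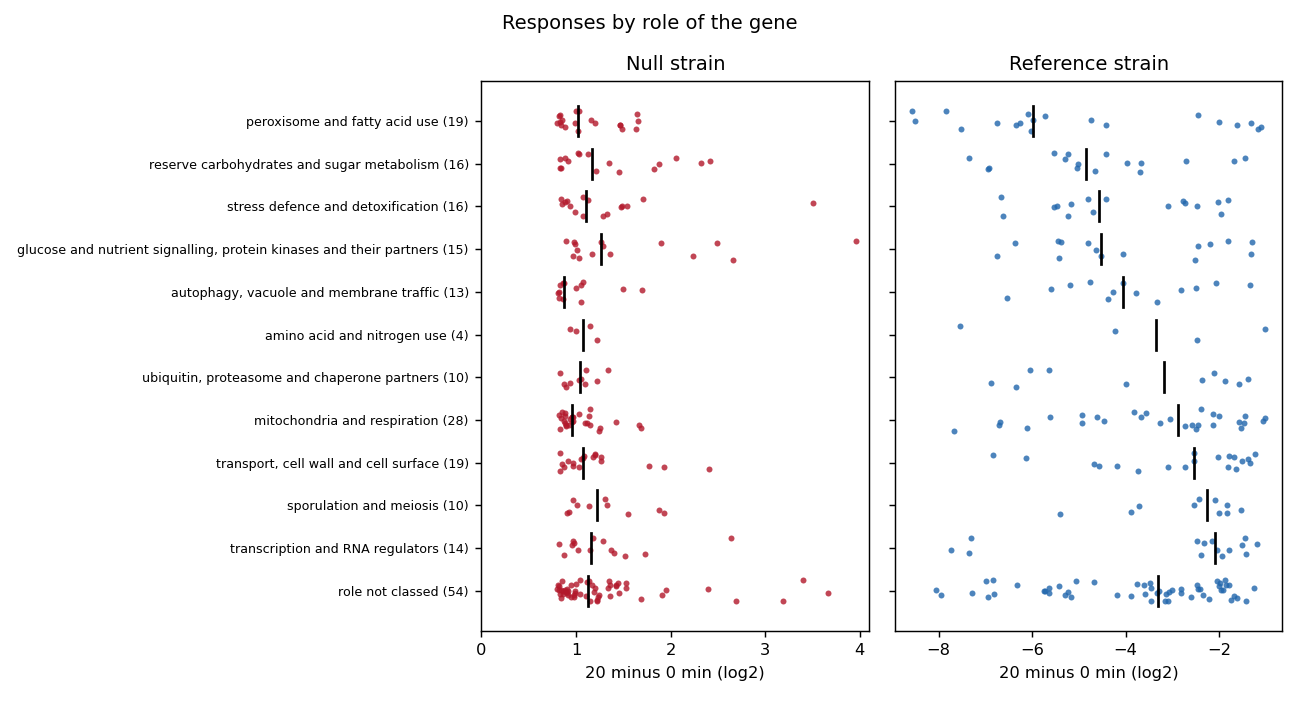
Each point is 1 member, placed by its role (number of members in brackets), with its response in log2 units in the null strain (left) and the reference strain (right), and black bars mark the class medians. Class medians lie between 0.87 and 1.27 in the null strain, and between -5.98 and -2.09 in the reference strain.

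Among signalling genes, MTH1 had one of the widest changes in the null strain. It encodes the corepressor that holds hexose transporter genes off when the glucose sensors are idle. Its values were 13.68 and 13.86 in the null strain at 20 min, against 11.39 and 11.16 at 0 min, and 6.10 and 5.47 in the reference strain at 20 min, against 10.31 and 10.88 at 0 min. The null response was 2.49 and the reference response -4.81 (SE 0.27 each). The class of 15 held 7 further protein kinase genes besides FMP48. MRK1 and RIM11, both of the glycogen synthase kinase 3 family, had null responses of 1.90 and 0.97 and reference responses of -6.37 and -6.75. YAK1, a kinase that slows growth and is opposed by protein kinase A, had 0.98 and -5.39. VHS1 had 2.66 and -2.52, and PRR2, a kinase tied to pheromone signalling, had 2.24 and -4.53. IKS1 and TDA1 had null responses of 1.01 and 1.27 and reference responses of -4.63 and -1.29. Under quantile normalization the reference response of TDA1 was -0.52. ARG82, the inositol polyphosphate kinase, had 1.36 in the null strain and -4.05 in the reference strain.

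MTH1 was the only member among 23 listed genes of glucose sensing and repression. In the null strain 5 of the 23 rose, 3 fell and 15 did not pass, and in the reference strain 10 rose, 4 fell and 9 did not pass. Over all genes, 12.6% rose and 17.3% fell in the null strain, and 39.4% rose and 36.2% fell in the reference strain, which is the background for each list below. The medians were 0.12 and 0.47, against 0.12 and 0.11 over all genes, and both turned below 0 with the values as deposited. They were then -0.13 and -0.03, against -0.13 and -0.38 over all genes, which also turned below 0. The reference split also turned with the values as deposited, to 7 that rose and 9 that fell. The high-affinity sensor gene SNF3 had -0.16 in the null strain and -5.70 in the reference strain.

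The regulators numbered 14. After USV1, XBP1 and LEE1, their reference responses were milder, from -2.48 to -1.18. Those of YPR015C, MSS11, PDR8 and TIS11 were above 0 under quantile normalization, from 0.12 to 0.70, so their direction is not settled. GIS1, a factor of stationary phase genes, had 12.66 and 12.77 in the null strain at 20 min, against 11.52 and 10.88 at 0 min, and 9.33 and 9.60 in the reference strain at 20 min, against 11.44 and 11.34 at 0 min. PIP2, which with Oaf1 turns on peroxisomal genes, had a null response of 1.28 (SE 0.39) and a reference response of -2.48 (SE 0.39). GAT2, a GATA family factor, had 1.73 and -1.42. MAF1, the repressor of RNA polymerase III, had 0.82 and -1.18. Among 15 listed activators of alternative carbon use, USV1 and PIP2 were members. CAT8 and ADR1, the activators of gluconeogenic and of ethanol and fatty acid genes, had null responses of 0.56 and 0.14 beside reference responses of -7.71 and -6.55, and so missed the null limit. Among 18 measured stress and quiescence regulators, XBP1 and GIS1 were members, and CIN5 missed narrowly, with 5.29 in the null strain and -0.98 in the reference strain.

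The peroxisome class had the steepest reference responses. Its members take fatty acids up and activate them (FAT3, FAA1, FAA2), bring them into the peroxisome (PXA1, PXA2) and oxidise them (POX1, FOX2 and POT1, with ECI1, DCI1 and IDP3 for unsaturated chains). TES1 is a thioesterase, CTA1 the peroxisomal catalase, LPX1 a lipase, and PEX14, PEX15, PEX18, PEX28 and PEX32 are peroxins, which build the organelle. Null responses ran from 0.80 to 1.66. Of 24 genes on the peroxisome and fatty acid oxidation list, 13 belonged to the set, or 54.2%, where the set was 4.0% of all genes. In the null strain 14 rose, 1 fell and 9 did not pass, and in the reference strain 2 rose, 20 fell and 2 did not pass. The medians of 0.83 and -4.77 kept their signs under all 3 scalings, while the number that rose in the null strain was 6 with the values as deposited. None of the 5 carnitine shuttle genes was a member. All 5 fell in the reference strain, and none passed in the null strain, where 1 fell under either other scaling.

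Genes of sugar stores and sugar use were 16. GIP2, PIG2 and GAC1 encode targeting subunits of the phosphatase Glc7 for glycogen synthase, GLG1 primes glycogen synthesis, IGD1 inhibits the glycogen debranching enzyme, and TPS2 makes trehalose. GIP2 had 1.88 and -5.03, PIG2 1.35 and -3.97, and TPS2 1.21 and -4.65, in the null and the reference strain. On the trehalose and glycogen list 5 of 24 were members, and 10 rose in the null strain, none fell and 14 did not pass. The number that rose was 5 under quantile normalization and 4 with the values as deposited. In the reference strain 23 fell and 1 rose. GPH1 and TSL1 had null responses of 0.54 and 0.68, below the limit, beside -8.05 and -7.32.

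The sugar genes included SUC2, the invertase, and MAL31 and MAL32, a maltose permease and a maltase. MAL31 had 13.62 and 14.16 in the null strain at 20 min, against 11.66 and 11.29 at 0 min, and 9.23 and 9.03 in the reference strain at 20 min, against 11.75 and 11.90 at 0 min. The responses were 2.41 and -2.70 (SE 0.23 each). MAL32, whose probe set can read its near copy at another MAL locus, had 2.33 and -3.67. IMA1 and IMA3, isomaltases, had null responses of 2.06 and 1.03. The IMA3 probe set is shared with a close relative, and the reference response of IMA1, -1.43 on the centred scale, was 0.70 under quantile normalization. Of 16 measured genes of maltose, sucrose and galactose use, 5 belonged to the set. In the null strain 5 rose, 1 fell and 10 did not pass. In the reference strain 14 fell, or 9 under quantile normalization. At 0 min 2 genes of this list were called lower in the null strain and 14 were not called, where 0.624% of all genes were called lower. PFK26, which makes the glycolytic activator fructose 2,6-bisphosphate, had 0.89 and -7.36.

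The mitochondrial class held assembly factors and single enzymes. SDH5 and SDH6 help to assemble succinate dehydrogenase, and COX17, CMC2, CMC4, MIX14 and COA4 are small twin-cysteine proteins, some of which serve cytochrome oxidase. CYB2 and DLD1 are lactate dehydrogenases, MPC1 is a subunit of the pyruvate carrier, and SUE1 promotes the breakdown of unstable cytochrome c. CYB2 had 15.13 and 15.26 in the null strain at 20 min, against 13.86 and 13.19 at 0 min, and 6.79 and 7.46 in the reference strain at 20 min, against 13.76 and 13.91 at 0 min. SUE1 had responses of 1.69 and -6.12 (SE 0.25 each), and MPC1 had 1.12 and -3.25 (SE 0.15 each).

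The enzymes of the citric acid cycle were not in the set. None of 18 measured genes on that list was a member, and none passed in the null strain, while 16 fell in the reference strain and 2 did not pass. The null median of 0.25 turned to -0.02 under quantile normalization, and 1 gene fell in the null strain under either other scaling. On the list of 10 genes of gluconeogenesis and the glyoxylate cycle, no gene was a member, 2 fell in the null strain and 8 did not pass. In the reference strain 8 fell, 1 rose and 1 did not pass. FBP1, the gluconeogenic bisphosphatase, had 0.23 in the null and -5.26 in the reference strain. Of 14 measured genes with the name FMP, given to proteins found in a survey of mitochondria, FMP10, FMP40, FMP45 and FMP48 belonged to the set.

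Stress genes numbered 16. ALD3, an aldehyde dehydrogenase induced by stress, had 12.71 and 13.53 in the null strain at 20 min, against 9.40 and 9.83 at 0 min, and 6.40 and 6.58 in the reference strain at 20 min, against 8.98 and 9.45 at 0 min. Its responses were 3.51 and -2.72 (SE 0.30 each). CTT1, the cytosolic catalase, had 14.23 and 14.88 in the null strain at 20 min, against 12.86 and 13.31 at 0 min, and 7.06 and 7.26 in the reference strain at 20 min, against 12.57 and 12.83 at 0 min. Of 36 listed general stress genes 8 were members, or 22.2%, and all 36 fell in the reference strain. Only 10 rose in the null strain, 1 fell and 25 did not pass, and 4 rose under quantile normalization or with the values as deposited.

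Protein turnover gave 10 members. RMD5, FYV10 and GID8 are subunits of the GID ubiquitin ligase, which destroys gluconeogenic enzymes when glucose returns. RMD5 had 10.59 and 10.38 in the null strain at 20 min, against 9.55 and 9.20 at 0 min, and 3.72 and 3.54 in the reference strain at 20 min, against 9.51 and 9.04 at 0 min. FYV10 had responses of 0.89 and -6.35, and GID8 1.05 and -1.37. VID30, another subunit, had 0.63 and -8.03 and missed the null limit. Of 33 proteasome genes only RPN3 was a member, at 0.83 and -2.10, while all 33 fell in the reference strain. NAS2, an assembly chaperone of the proteasome, was also in the set, with 1.04 and -2.37.

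Autophagy and membrane traffic gave 13 members. ATG17 and ATG29 belong to the scaffold that starts autophagy, ATG14 to a lipid kinase complex, ATG20 and SNX41 are sorting nexins that bind each other, and ATG32 is the receptor for mitochondria. ATG20 had 11.52 and 11.59 in the null strain at 20 min, against 10.09 and 10.03 at 0 min, and 4.19 and 4.52 in the reference strain at 20 min, against 9.80 and 10.09 at 0 min. ATG29 had responses of 1.70 and -2.82, and ATG32 0.84 and -1.33. Under quantile normalization the reference response of ATG29 was only -0.23. Of 30 measured autophagy genes 5 were members. In the null strain 10 rose, 1 fell and 19 did not pass, and in the reference strain 28 fell and 2 did not pass. With the values as deposited 5 rose and 2 fell in the null strain.

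The remaining classes were of the cell surface, sporulation and nitrogen use. The 19 surface and transport genes included FIT1, a cell wall mannoprotein of iron uptake, with responses of 2.40 and -1.63 (SE 0.39 each), and AQY1, an aquaporin, with 0.97 and -4.19. FMP45 and YNL194C, relatives of the eisosome protein Sur7, had reference responses of -6.13 and -6.83. Of the 10 sporulation genes 6 had a deposited reference value under 5 at 20 min, and DIT1, DMC1 and ADY4 turned above 0 in the reference strain under quantile normalization. So did PUG1, NFT1, FRE2, SAG1 and THI72 of the surface and transport genes, and CHA1 of nitrogen use. PUT4, the proline permease, and PUT1, the proline oxidase, had null responses of 1.00 and 0.94 and reference responses of -4.22 and -1.02. On the list of 19 measured meiosis and sporulation genes 3 were members.

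Among unclassed genes were some of the widest null changes. YKR075C had 14.68 and 14.65 in the null strain at 20 min, against 10.71 and 11.30 at 0 min, and 6.29 and 7.28 in the reference strain at 20 min, against 10.07 and 10.17 at 0 min. YLR108C had 11.996 and 11.992 in the null strain at 20 min, against 8.90 and 8.70 at 0 min, and 4.21 and 4.06 in the reference strain at 20 min, against 7.52 and 7.67 at 0 min. The null responses were 3.67 (SE 0.33) and 3.19 (SE 0.16), next to FMP48, ALD3 and UTR5 at the top of the set. UTR5 had 3.40, but its reference response of -1.86 became 0.38 under quantile normalization. The roles of these genes are not settled.

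The other lists held between 0 and 3 members each. Among 14 measured genes of the GID ligase and of arrestins, which mark membrane transporters for removal, 3 were members, 3 rose and 11 did not pass in the null strain, and 2 rose and 11 fell in the reference strain. Of 23 measured genes of amino acid breakdown, 3 were members, 6 rose and 3 fell in the null strain, and 4 rose and 12 fell in the reference strain. The null split turned to 2 that rose and 3 that fell with the values as deposited, and the reference split was 7 and 9 under quantile normalization. The 27 mitochondrial carriers had MPC1 as their member, with 3 that rose and 8 that fell in the null strain, and 9 that rose and 11 that fell in the reference strain. Under either other scaling 1 carrier gene rose in the null strain. MPC3, another pyruvate carrier subunit, had 0.79 and -4.73 and missed the null limit. No member was among 18 genes of glycerol use and osmotic stress, of which 1 rose and 3 fell in the null strain, and 8 rose and 8 fell in the reference strain. At 0 min 1 gene of this list was called lower in the null strain. STL1, on this list, had a null response of 0.2295, the same value as HXT1 and HXT5 at the bottom of the scale. A gene at that level could not have met the rule.

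Lists of regulators and of sporulation moved both ways. The activators of alternative carbon use held 5 genes that rose and 2 that fell in the null strain, and 3 that rose and 7 that fell in the reference strain. The null split turned to 1 and 2 with the values as deposited. For the stress and quiescence regulators these counts were 7 and 2, and 5 and 6, with a reference split of 9 and 6 under quantile normalization. Meiosis and sporulation genes gave 5 and 1, and 5 and 6. Their reference split was 8 and 3 under quantile normalization and 2 and 8 as deposited, so it has no settled direction. Among the FMP genes 5 rose and none fell in the null strain, and none rose and 12 fell in the reference strain. With the values as deposited 2 FMP genes rose in the null strain. The proteasome list had 6 genes that rose and none that fell in the null strain, and the null response of 27 did not pass. This held on the centred scale alone, since 2 rose and 2 fell under quantile normalization and no gene passed as deposited.

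The arrays of replicate 2, which the rule did not use, held differences of the opposite sign by their labels. Their differences are 1 array against 1 array and have no test. The array labelled 20 min minus that labelled 0 min was at most -0.8 in the null strain for 150 of 218 members (68.8%), where it was so for 11.8% of all genes. In the reference strain it was at least 1 for 211 members (96.8%), against 28.5% of all genes. Both held for 145 members (66.5%) and 4.94% of all genes. In the direction of the labels, with at least 0.8 in the null and at most -1 in the reference strain, 0 of 218 members and 8.97% of all genes passed. The median difference of the members was -1.05 in the null and 3.32 in the reference strain, beside -0.07 in both strains over all genes. The 5 members not below 0 in the null strain were MIX14, RRT8, YFL041W-A, YGR174W-A and YMR158C-A.

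**Figure D4:**
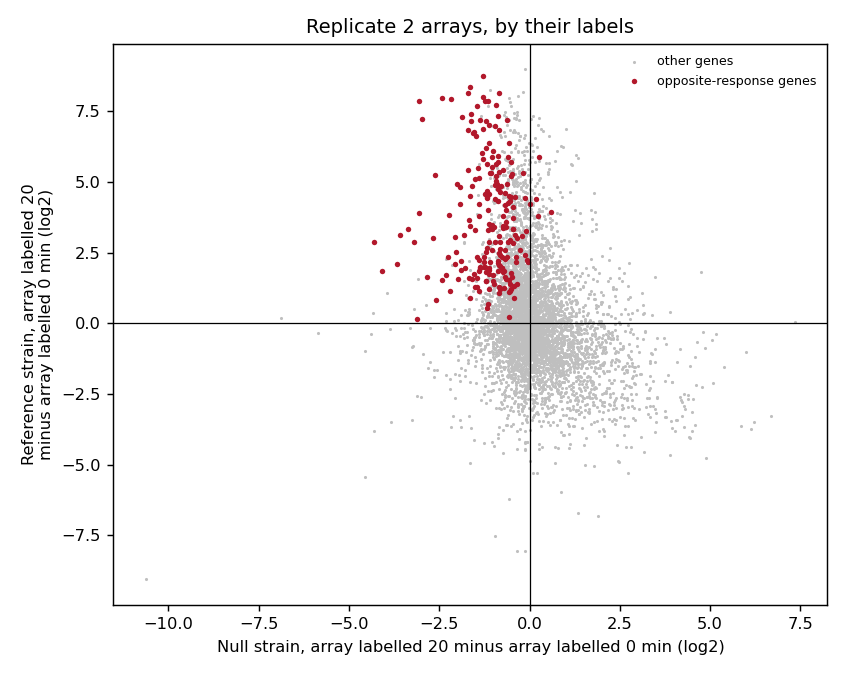
Each point is 1 gene on the replicate 2 arrays, with the array labelled 20 min minus the array labelled 0 min in the null strain on the x axis and in the reference strain on the y axis, in log2 units. Of the 218 members (red), 213 lie left of 0 on the x axis and all lie above 0 on the y axis, where 54.6 and 48.0% of all genes do.

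Before the pulse, the strain difference of the members lay near 0 at the median, as it did for all genes. It was at least 0.8 in size for 16 members (7.34%), against 5.34% of all genes. At 0 min the null minus reference difference of the members had a median of 0.04, from -1.34 to 1.76, and that of all genes also had a median of 0.04. By limma 3 members were called higher in the null strain and 0 lower (33 in either direction at an unadjusted p under 0.05, 15.1% of the members, against 12.5% of all genes). The background was 0.881% of all genes called higher and 0.624% lower, so the members' share of 1.38% rests on 3 genes. This contrast was not part of the rule, but it uses the same arrays, so the test is not independent of the choice. A difference too small for 2 arrays per group would not have been seen, and the missing calls do not show equal levels.

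The 3 genes were YLR108C, FUN19 and PAU21. YLR108C was higher in the null strain at 0 min by 1.21 (SE 0.16, limma adjusted p = 0.0126). FUN19, on chromosome I, had 13.19 and 13.08 in the null strain at 0 min, against 11.97 and 12.13 in the reference strain, a difference of 1.09 (SE 0.15, limma adjusted p = 0.0162). PAU21 had 6.78 and 7.30 in the null strain at 0 min, against 5.02 and 5.54 in the reference strain, a difference of 1.76 (SE 0.26, limma adjusted p = 0.0196). Its probe set is shared within the large PAU family. With the values as deposited 1 of the 3 calls was left, and none without reference 0 min replicate 1, without reference 0 min replicate 3 or without null 0 min replicate 3. At 20 min the members lay higher in the null strain by a median of 4.79, from 1.78 to 10.31, where the median of all genes was -0.05. Both of the rule's responses and its level minimum enter that value.

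**Figure D5:**
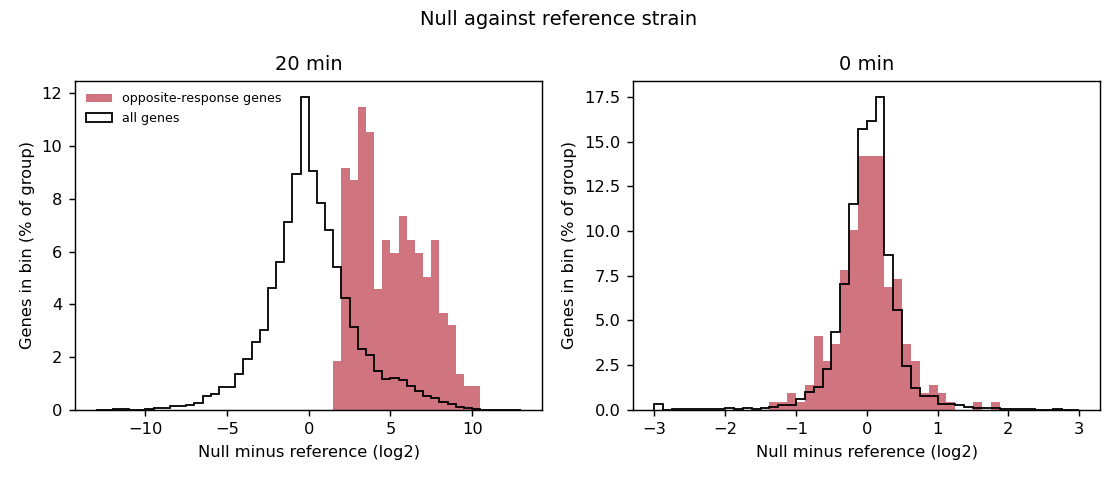
Histograms of the null minus reference difference in log2 units at 20 min (left) and 0 min (right), as a percentage of the 218 members (red) and of all 5449 genes (black outline), over replicates 1 and 3. At 0 min the members spread about 0 like all genes, with differences below -3 drawn in the first bin, and at 20 min all members lie above 0.

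The members lay on all 16 chromosomes, from 1.11% of measured genes on chromosome I to 7.33% on chromosome IX. Of 5433 pairs of measured genes that are next to each other, 11 pairs had members on both sides. Besides PXA2 with FAT3, these were HBT1 with FMP45, RMD5 with CTA1, SPG3 with PSP1, SUC2 with POT1, XBP1 with SGA1, PDR8 with BOP2, GID8 with GAT2, YNL195C with YNL194C, MPC54 with GAC1 and YIG1 with CSM4. YNL195C and YNL194C had null responses of 1.12 and 1.20 and reference responses of -4.67 and -6.83. A second probe set was on the array for only 2 members. For NHP6B it had 0.74 in the null and -1.34 in the reference strain, and for YGR174W-A 1.80 and -2.84. Probe sets that can read more than 1 gene served 8 members.

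Membership depended on how the arrays were scaled. All 218 members had a null response above 0 under each of the 3 scalings tried. The reference response was below 0 for all 218 when arrays were centred or left as deposited, and for 197 under quantile normalization. The 21 others had reference signals of 4.30 to 7.57 at 20 min on the centred scale. Every limit of the rule was met under all 3 scalings by 82 members, FMP48, MTH1, USV1, XBP1, PXA2, GAC1, CTT1, MAL31, YKR075C and YLR108C among them. FAT3, POX1 and ALD3 were not among the 82.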

How the data were processed

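RNA of the 12 cultures was labelled as cRNA from 5 ug of total RNA, per the labels' protocols, and measured on 1-colour arrays. The authors deposited log2 intensities, 1 for each probe set on each array. Their steps of probe summary and normalization are not given in the sources used here. Of 10928 probe sets, 5498 matched 5449 S. cerevisiae genes through the probe table and the RefSeq table (assembly R64), and the probe set of highest mean over 12 arrays was kept for each gene. Array medians ran from 10.34 to 10.90. Each array was centred on its median, and the mean of the 12 medians, 10.63, was added back. Values on this scale are printed as levels. SE and calls come from limma 3.58.1 in R 4.3.3, with 4 group means on 8 arrays (4 residual degrees of freedom), eBayes and p-values adjusted by Benjamini-Hochberg across the 5449 genes, called at 0.05. "Rose" and "fell" mean called. The function was tested on simulated data.

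The members, the 19 lists and the choice of arrays were made with earlier results of these data known, and the roles were assigned once the members were known. Values on all arrays were fixed for FMP48 and the 12 members with the largest difference between responses, and up to 4 genes with the largest such difference were named per list. Other members are named for their roles and were chosen after their values were seen. Promoter motifs were not searched. Alternatives covered scaling, probe sets, arrays, a replicate block, dim genes, thresholds and the variance model. Tables were handled in Python 3.11.15 and figures drawn with matplotlib 3.10.9.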

Additional observations from a re-analysis of the deposited data

Results flagged for a closer look

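All 218 members had responses of opposite direction in the null and the reference strain. The rule fixes this, and the difference between the responses was not tested apart from it.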

How the results depend on the processing

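The set of 218 genes held 165 under quantile normalization, of which 119 were shared, and 195 to 226 with another probe set or other level minimums. It held 130 genes with the values as deposited (112 shared), 5 with all 12 arrays as labelled (MAL32, YGR174W-A, YKR075C, YLR108C and YOR019W), 35 with both responses at least 1.5 in size and 608 with both at least 0.5. Leaving out replicate 1 gave 301 genes, with 182 of the 218 shared, and leaving out replicate 3 gave 221, with 158 shared. With all 12 arrays as labelled, limma called 0 genes in the null response (18 at an unadjusted p under 0.05), 0 in the reference response (11), 0 in the difference (10), 12 between strains at 0 min and 16 at 20 min. Array weights gave 2689 for the null response and 215 at 0 min. Values as deposited gave 41 genes at 0 min, with 1 member called. They moved the median response of all genes to -0.13 in the null and -0.38 in the reference strain, and the split of null calls to 250 higher and 1183 lower, where centring gave 685 and 941. Leaving out 1 of the 8 arrays, with the lone array assumed to vary like the others, gave 956 to 1515 genes for the null response, 3635 to 4205 for the reference response, 3552 to 3702 for the difference, 22 to 74 at 0 min and 3960 to 4226 at 20 min, with 0 to 4 members called at 0 min. The replicate block on 8 arrays left 1469, 4088, 3741, 68 and 4190 genes in this order. On all 12 arrays it left 0, 0, 0, 5 and 4 genes, with 0 members called at 0 min, as also with all 12 arrays as labelled. Same-numbered arrays did not deviate together (correlation -0.32 in the null and 0.08 in the reference strain for replicates 1 and 3), so the numbers were not taken as pairs. With the numbers of the null arrays at 0 min crossed, an alternative chosen after seeing the data, the replicate block left 1661, 4154, 3835, 66 and 4261 genes. The responses of the 13 genes given on all arrays kept their direction under each of these settings. The cause of these shifts was not tested.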
